A study of Homo sapiens with 14 samples.

Results

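The 9 genes described here are the EGF family ligands AREG, EREG, HBEGF, NRG1, TGFA and BTC and the ERBB receptors EGFR, ERBB2 and ERBB3. They were taken from a list of gene names, although earlier results of these data were known when the list was chosen. All 9 were found among the 24638 genes listed in every kind of expression table of the series. They were followed over 14 samples in 7 groups, in poly(A)-selected RNA of IMR90, primary human fetal lung fibroblasts. The IMR90 isolates I79 and I10 were each sampled as young, low-passage wild-type cells and as old, high-passage senescent cells. I79 ICM cells were low-passage cells treated with inflachromene (ICM), a small molecule that binds HMGB1 and HMGB2. WT cells were labelled wild type, and HMGB2 KD cells carried a knockdown of the chromatin protein HMGB2, made with siRNA per the methods of the study. The labels do not say which isolate was used for WT and HMGB2 KD, or whether WT cells received a control siRNA, and they give no dose or time for the RNA samples. I79 young, I79 old, I10 young and I10 old each had 1 table although their titles list 2 replicates, so their values carry no SD. WT, HMGB2 KD and I79 ICM had 2 libraries each. Labels do not say whether replicates came from separate cultures. P-values for HMGB2 KD against WT therefore reflect no sampling beyond these libraries, whose spread may be technical. Those for old against young come from 1 table per isolate and age. They rest on how far the change differed between the 2 isolates, with 1 residual degree of freedom. In both comparisons edgeR also drew the variance of each gene towards a trend over all genes tested. Its p-values and SEs therefore rest in part on the variance of other genes.

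EGF family ligands are made as membrane proteins and are cut loose by metalloproteases, after which they bind ERBB receptors on the same or a neighbouring cell. AREG (amphiregulin) and TGFA bind EGFR, while EREG (epiregulin), HBEGF (heparin-binding EGF-like growth factor) and BTC (betacellulin) bind EGFR and ERBB4. NRG1 (neuregulin 1) binds ERBB3 and ERBB4. ERBB2 has no known ligand of its own and pairs with the other receptors, and ERBB3 has little kinase activity and signals through its partner. In fibroblasts EGFR is a main growth factor receptor, and amphiregulin and epiregulin are often listed among factors that senescent fibroblasts secrete.

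EPGN, EREG, AREG and BTC are neighbours on chromosome 4, within 545547 bases of GRCh37. EREG lies at chr4:75230862-75254466 and AREG at chr4:75310853-75320722, both on the plus strand, and 56386 bases separate them. This genome build holds a second copy of AREG, AREGB, at chr4:75480629-75490486, which had 0 estimated counts in the old and young tables and is not listed in the WT and HMGB2 KD tables. AREG counts are therefore uncertain wherever reads fit both copies. The promoters of the pair are printed because EREG was called lower in HMGB2 KD and AREG is its expressed neighbour. They come from RefSeq (GRCh38.p14), on the plus strand, and run from 250 bases before to 50 bases after the start of the gene. Capitals mark matches to TGACGTCA (the cyclic AMP response element) and TATAAA (the TATA box).
AREG, chr4:74444886-74445185: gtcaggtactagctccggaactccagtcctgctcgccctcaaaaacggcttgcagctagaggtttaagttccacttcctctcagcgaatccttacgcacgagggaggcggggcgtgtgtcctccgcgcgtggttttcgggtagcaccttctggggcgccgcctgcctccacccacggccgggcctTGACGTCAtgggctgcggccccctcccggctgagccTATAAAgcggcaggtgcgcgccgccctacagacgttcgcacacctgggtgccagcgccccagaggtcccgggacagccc
EREG, chr4:74364895-74365194: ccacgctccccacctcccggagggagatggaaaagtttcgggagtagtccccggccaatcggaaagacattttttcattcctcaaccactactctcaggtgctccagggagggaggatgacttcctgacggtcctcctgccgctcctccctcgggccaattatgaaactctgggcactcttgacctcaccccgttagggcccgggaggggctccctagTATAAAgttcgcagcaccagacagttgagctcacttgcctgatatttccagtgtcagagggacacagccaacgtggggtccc

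In AREG the TATAAA match began at -29 and the TGACGTCA match at -65, and in EREG the TATAAA match began at -32, with the base before the start counted as -1. On either strand, TATAAA was found in 11.5% of the 35116 promoter entries of the same length and TGACGTCA in 1.85%. Entries on chromosome 8, where NRG1 lies, were left out of the scan. ERBB3 had no entry, so neither gene was scanned. A further motif, TGANTCA (the AP-1 site, in 7.71% of entries), matched neither promoter, and no match shared bases with another. The single entries of HBEGF and BTC, both entries of TGFA and 1 of the 2 entries of EGFR held none of the 3 motifs. The other EGFR entry held 2 matches each to TGANTCA and TATAAA, and ERBB2 held 1 to TGANTCA, at -222.

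Depth ranged from 14598196 to 20055442 estimated counts in the old and young tables, from 33561766 to 41168932 counts in the WT and HMGB2 KD libraries and from 10970797 to 13289826 reads in the ICM libraries. The targeted gene, HMGB2, had 27.1 and 27.3 CPM (counts scaled to library size) in WT against 3.22 and 3.64 CPM after its knockdown, and it fell by 1.64 on the log2 scale in old cells. All 10 fibroblast markers were detected in every kind of table, with summed levels between 12310 and 33923 CPM. The 10 epithelial markers summed to between 0.268 and 2.88 CPM, and KRT14, SFTPC, SCGB1A1 and ESRP1 were at 0 in every table. The endothelial marker CDH5 and the T cell marker CD3E were at 0 throughout, whereas TEK and CD68 of the endothelial and immune lists were expressed and were called higher in old cells, by 1.24 and 2.37 on the log2 scale. In HMGB2 KD, 3 of the 10 fibroblast markers were called higher (PDGFRB, COL1A1 and VIM) and COL3A1 lower, against 5.20% of all genes tested. Whether these markers bear on the members was not tested. In bulk RNA, fewer expressing cells and less RNA per cell cannot be told apart.

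**Figure D1:**
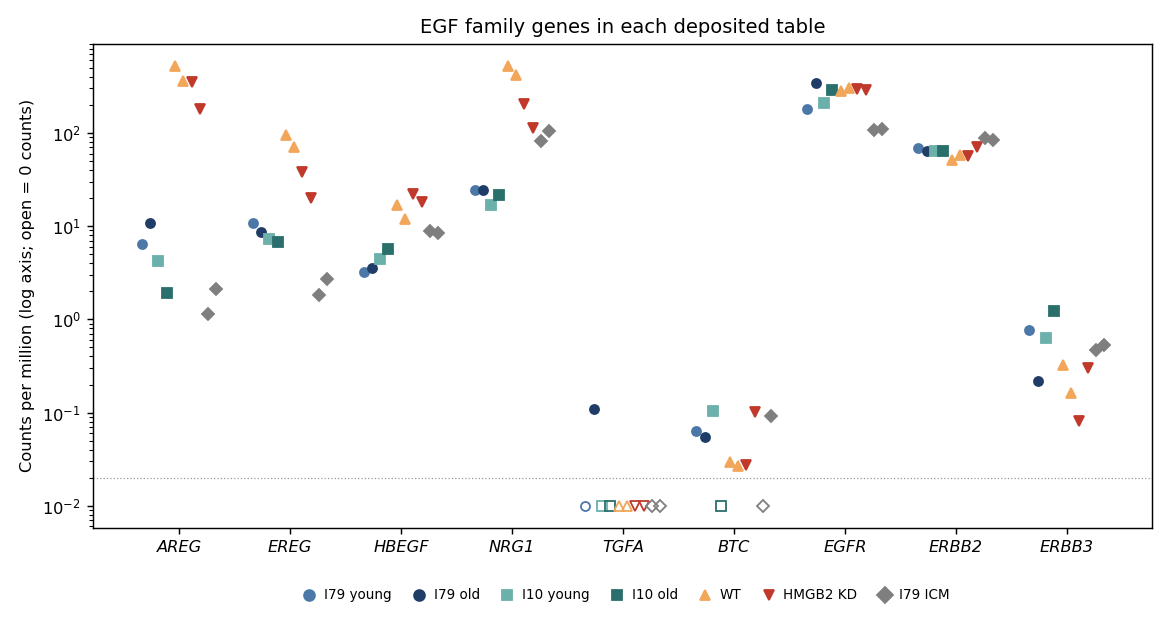
CPM of each member (log axis) in each table or library, with marker shape and colour giving the group and open symbols at the bottom marking 0 counts. AREG and NRG1 are at 359 CPM or above in WT but at 24.4 CPM or below in the young and old tables, whereas EGFR and ERBB2 are high in every group and TGFA is at or near 0 in all.

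In young fibroblasts EGFR and ERBB2 had the highest levels and every ligand was lower. On the TPM scale, which corrects for transcript length and depth, EGFR stood at 32.5 in I79 young and 38.6 in I10 young, and ERBB2 at 32.9 and 32.6. Summed over transcripts, NRG1 was the highest ligand in both young tables, at 12.2 and 8.97 TPM. By leading transcript alone AREG was above NRG1. AREG-201 had 9.76 and 6.57 TPM against 4.93 and 3.34 TPM for NRG1-202. Which ligand led thus depended on the measure. In the summed order AREG followed at 9.76 and 6.57 TPM, EREG at 4.77 and 4.09 TPM and HBEGF at 2.40 and 3.34 TPM. ERBB3 was the lowest receptor, at 1.84 and 1.19 TPM on 12 estimated counts in each table. Each order comes from 1 table, so it has no replicate check.

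In the WT libraries a ligand was at the top. The scale used here takes 1 transcript length per gene and differs from TPM, so this order was not compared with that of young cells. With CPM divided by the length of the main transcript in kilobases, AREG averaged 356 ± 93.6 (SD, n = 2) and NRG1 79.6 ± 12.2 (SD, n = 2), above EGFR at 30.0 ± 1.45 (SD, n = 2). EREG, at 17.9 ± 3.89 (SD, n = 2), lay above ERBB2 at 12.6 ± 1.27 (SD, n = 2) and HBEGF at 5.99 ± 1.43 (SD, n = 2). Neighbours in this order did not overlap between libraries. In HMGB2 KD the levels of EGFR and NRG1 overlapped, as did those of HBEGF and EREG, while AREG stayed highest at 216 ± 99.6 CPM per kilobase (SD, n = 2). In the ICM libraries ERBB2 was highest at 19.8 ± 0.96 CPM per kilobase (SD, n = 2), then NRG1 at 15.7 ± 2.59 and EGFR at 11.1 ± 0.17 (SD, n = 2 each), with no overlap between them.

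TGFA and BTC were at or near the limit of detection in every group. TGFA had 0 counts in 9 of the 10 tables and libraries and 2 estimated counts in I79 old. BTC had between 0 and 4 counts. A count of 0 allows up to 3 counts, which is between 0.0729 and 0.273 CPM depending on the library, and these limits cover counting error only. Neither gene passed the filter on low counts, so 7 of the 9 members were tested in each comparison.

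The comparison of HMGB2 KD with WT asked which transcripts change when HMGB2 is depleted. NRG1 and EREG fell in the knockdown libraries and no member rose by the same test. NRG1 had 523 and 421 CPM in the WT libraries against 205 and 112 CPM in the knockdown. Its group means were 472 ± 72.3 CPM and 158 ± 65.4 CPM (SD, n = 2 each), and the groups did not overlap. The decrease was 2.98-fold, a log2 fold change of -1.58 (SE 0.22, with adjusted p = 0.00054, edgeR's quasi-likelihood test). NRG1 overlaps 1 protein-coding gene and genes on the opposite strand, and whether counting used strand is not given in the sources used here.

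EREG had 95.5 and 70.0 CPM in the WT libraries against 38.2 and 19.8 CPM in the knockdown. Its group means were 82.8 ± 18.0 CPM and 29.0 ± 13.0 CPM (SD, n = 2 each), again without overlap. It was 2.85-fold lower, a log2 fold change of -1.51 (SE 0.24, with adjusted p = 0.0010, edgeR). This call was lost with DESeq2's Wald test, where the log2 fold change was the same to 2 digits and the adjusted p was 0.026, the highest over the 10 alternatives. Both libraries of the knockdown were below both WT libraries for each gene, but HMGB2 KD replicate 2 was the lower of the pair. Without it the decreases were -1.20 for NRG1 and -1.11 for EREG on the log2 scale (adjusted p = 0.0035 and 0.0054, edgeR), and without HMGB2 KD replicate 1 they were -2.08 and -2.07.

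Of all 15338 genes tested, 5.20% were called in this comparison, 2.86% higher and 2.34% lower, against 2 of the 7 members tested, both lower. Calls needed an adjusted p under 0.01 and a log2 fold change past 0.6 in size. Of the members with a positive fold change, DESeq2 called none, and 1, HBEGF, had an unadjusted p under 0.05 by edgeR. The median log2 fold change was -0.30 over the members tested and 0.0018 over all genes. The groups did not overlap for 4 of the 7 members tested (NRG1, EREG, AREG and HBEGF), and for 53.8% of all genes tested.

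AREG, the neighbour of EREG, had the same direction but was not called. AREG had 523 and 359 CPM in the WT libraries against 355 and 180 CPM in the knockdown, so WT replicate 2 and HMGB2 KD replicate 1 were nearly equal. The log2 fold change was -0.72 (SE 0.25, with adjusted p = 0.088, edgeR). The call depended on single libraries and on the fit. Without HMGB2 KD replicate 1 the value was -1.30 and AREG was called, as it was without WT replicate 2 at -0.97. Without HMGB2 KD replicate 2 the value was -0.31 and without WT replicate 1 it was -0.43, neither of them called. With all 4 libraries, AREG passed at -0.73 when low counts were not filtered and at -0.62 with 1 RUVs factor. Over the 10 alternatives AREG was called in 5, and its adjusted p ranged from 3.44e-07 to 0.47.

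HBEGF differed in the other direction. The WT libraries had 16.7 and 11.9 CPM and the knockdown 22.1 and 18.0 CPM, a log2 fold change of 0.49 (SE 0.18) that did not pass the test (adjusted p = 0.10, edgeR). It was called under none of the 10 alternatives.

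No receptor was called. EGFR had 285 and 305 CPM in the WT libraries against 294 and 288 CPM in the knockdown, with overlapping groups and a log2 fold change of -0.02 (SE 0.13, with adjusted p = 0.96, edgeR). ERBB2 had 50.9 and 58.7 CPM in the WT libraries against 56.8 and 70.5 CPM in the knockdown, also overlapping, and its log2 fold change of 0.22 (SE 0.14) was not called (adjusted p = 0.40, edgeR). ERBB3 had between 3 and 12 counts in these 4 libraries, so that its log2 fold change of -0.30 carried an SE of 0.88. No change in ERBB3 was detectable at this depth.

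**Figure D2:**
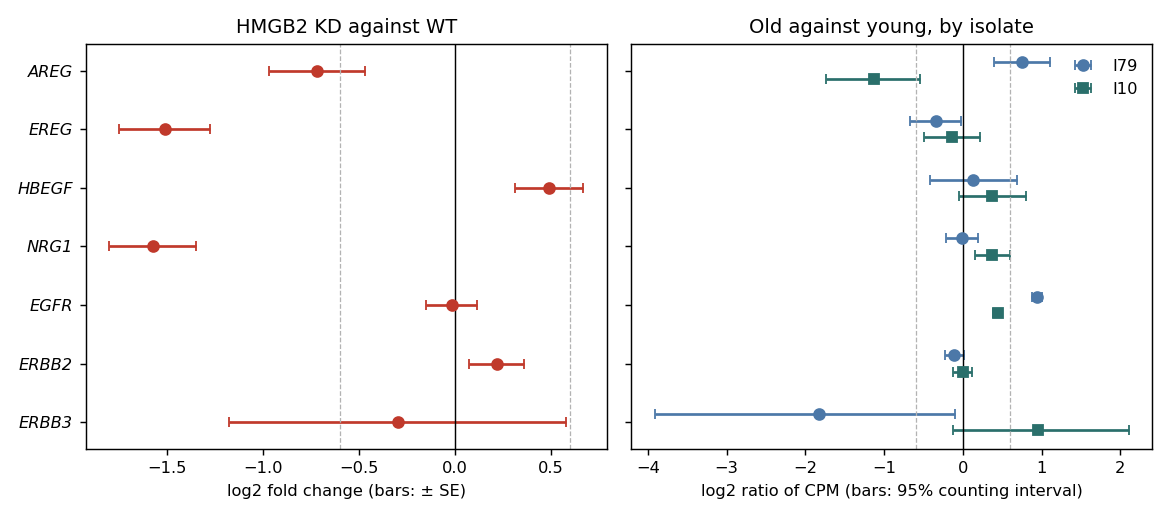
Left, log2 fold change of the 7 members tested in HMGB2 KD against WT, with bars of 1 SE; right, log2 ratio of CPM in old over young cells of each isolate, with 95% counting intervals and 1 table per group. NRG1 and EREG lie near -1.5 in the knockdown, and the AREG points of the 2 isolates fall on opposite sides of 0 (0.75 and -1.13); dashed lines mark 0.6.

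The comparison of old with young cells asked which transcripts change at replicative senescence. It used both isolates as the replicates of the change, with the isolate as a covariate. By edgeR 0 of 7 members were called, against 9.36% of the 15133 genes tested (5.66% higher and 3.70% lower). Of the 7, 1 member, EGFR, had an unadjusted p under 0.05, and DESeq2 called that 1. The median log2 fold change was -0.05 over the 7 members tested and -0.01 over all genes.

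EGFR came nearest to a call and was higher in the old table of both isolates. The young and old tables had 181 and 348 CPM in I79 and 211 and 286 CPM in I10. The log2 ratios were 0.94 in I79 (95% counting interval 0.88 to 1.01) and 0.44 in I10 (0.38 to 0.50). Over both isolates the log2 fold change was 0.69 (SE 0.16, with adjusted p = 0.032, edgeR), which is not under 0.01. DESeq2's Wald test on the same genes called it (adjusted p = 0.0016), and so did the edgeR test with no filter on low counts. Over the alternatives with a test its adjusted p ranged from 9.52e-05 to 0.047. With plain library totals, which shift the median of all genes by -0.21, its log2 fold change was 0.48.

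AREG differed in opposite directions in the isolates. In I79 it had 6.40 CPM in the young and 10.7 CPM in the old table (100 and 198 estimated counts), a log2 ratio of 0.75 (95% counting interval 0.39 to 1.11). In I10 it had 4.22 CPM in the young and 1.93 CPM in the old table (81 and 35 estimated counts), a log2 ratio of -1.13 (-1.74 to -0.54). The counting intervals do not overlap, but the difference between isolates was not tested because each group had 1 table. Over both isolates the log2 fold change was -0.08 with an SE of 0.48 (adjusted p = 0.91, edgeR).

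By CPM the other ligands stayed closer to their young levels. EREG had 10.9 CPM in young and 8.57 CPM in old I79 cells and 7.35 and 6.69 CPM in those of I10, a log2 fold change of -0.24 (SE 0.18, with adjusted p = 0.35, edgeR). In TPM it had 4.77 and 2.86 in I79 and 4.09 and 2.14 in I10. EREG-201 alone had 3.87 and 2.86 TPM in I79 and 2.56 and 2.14 TPM in I10. With counts scaled from TPM the EREG log2 fold change was -0.65 (SE 0.27), also not called (adjusted p = 0.14, edgeR). In the same order of tables HBEGF had 3.26, 3.58, 4.43 and 5.75 CPM and NRG1 24.4, 24.1, 16.7 and 21.7 CPM. Their log2 fold changes were 0.26 (SE 0.25) and 0.18 (SE 0.16), and neither was called. ERBB2 was 69.8 CPM in the young and 64.8 CPM in the old table of I79 and 64.6 and 64.5 CPM in I10, a log2 fold change of -0.05 with an SE of 0.10. ERBB3 had 12 and 4 estimated counts in I79 young and old and 12 and 22 in I10 young and old.

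While ERBB2 was not called as a gene, its estimated transcript shares differed between young and old tables. ERBB2-204 held 72.0% of the estimated counts of the gene in I79 young and 48.3% in I79 old, and 61.3% in I10 young and 44.5% in I10 old. ERBB2-201 went the other way, from 19.7% to 38.1% in I79 and from 20.3% to 41.9% in I10. In counts, ERBB2-201 had 215 in young and 455 in old I79 cells, and 251 and 489 in those of I10. Such counts are estimates that split reads between overlapping transcripts, 22 of which are listed for ERBB2, and ERBB2 overlaps 2 coding genes, PGAP3 and MIEN1. No test was run on transcripts.

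AREG, EREG, HBEGF, NRG1 and EGFR each had 1 leading transcript in all 4 tables. NRG1-202 held between 68.7% and 77.2% of the estimated counts of NRG1, EGFR-201 between 99.5% and 99.8% of EGFR, and AREG-201 and HBEGF-201 all of theirs. NRG1-211 was estimated at 0 in I79 old against 24.3 counts in I79 young, and was at 22.9 in I10 young and 30.1 in I10 old. ERBB3 had its few counts on different transcripts in different tables, with ERBB3-201 at 0 in both young tables.

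**Figure D3:**
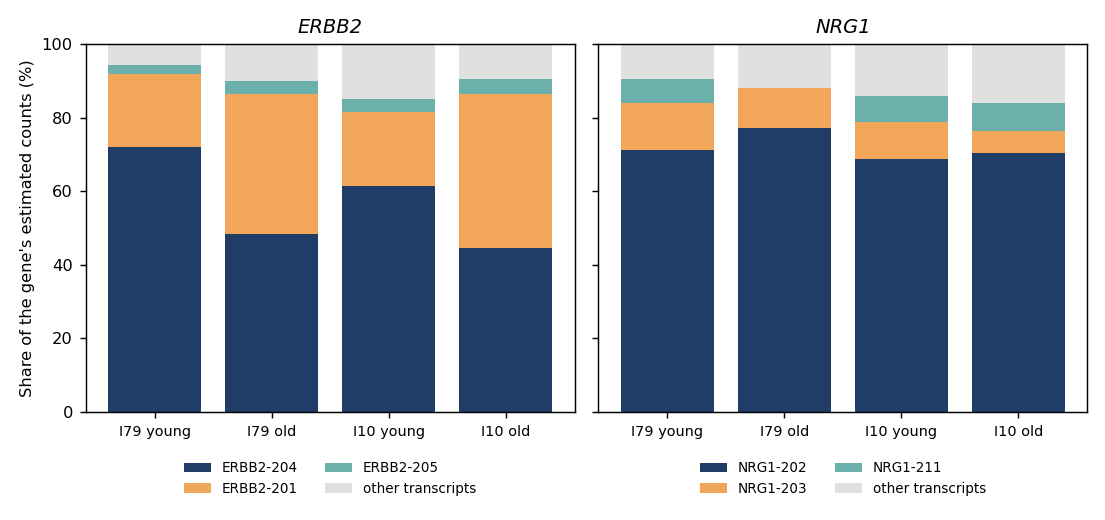
Share of the estimated counts of ERBB2 and of NRG1 (percent) held by the 3 transcripts with the most counts and by all others, in each of the 4 old and young tables. The ERBB2-204 share is lower in the old table of both isolates (72.0% to 48.3% in I79, 61.3% to 44.5% in I10) while NRG1-202 holds most of NRG1 in all 4.

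ICM libraries were set against the I79 young table over 15015 genes. These tables were counted in different ways, and their library preparation may differ too. The treatment, the counting and any such difference cannot be told apart, and no test was run. By log2 ratio of CPM, 6 of the 7 members with enough reads were past 0.6, 2 higher and 4 lower, and 61.0% of all genes were (31.1% higher and 29.8% lower). The WT libraries, treated the same way as a background without ICM, also had 6 of 7 past 0.6, 5 of them higher, against 44.9% of all genes past 0.6 and 21.6% higher. The I10 young table, counted like I79 young, had 0 of 7 past 0.6 against 10.9% of all genes.

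AREG and EREG were low after ICM. AREG had 15 and 23 reads in the ICM libraries, a log2 ratio to I79 young of -2.14 ± 0.60 (SD of the 2 libraries), and EREG had 24 and 29.8 reads, a log2 ratio of -2.39 ± 0.40. Only 1 and 5 of the EREG reads lay in the coding region, and with coding reads alone, set against the same young counts of whole transcripts, the EREG ratio was -4.92. HBEGF had 118 and 92 reads and a log2 ratio of 1.24 ± 0.06, which dropped to 0.04 with coding reads alone. NRG1 had 1092 and 1140 reads and was higher in both ways, at 1.77 ± 0.24 with all reads and 1.33 with coding reads.

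For the receptors, EGFR had 1434 and 1209 reads and was lower, with a log2 ratio of -0.87 ± 0.02 that moved to -1.70 with coding reads alone. ERBB2 had 1183 and 912 reads and a log2 ratio of 0.16 ± 0.07, or 0.58 with coding reads alone. ERBB3 had 6.17 and 5.83 reads and a log2 ratio of -0.68 ± 0.12, or -0.99 with coding reads alone. The SD here is between 2 libraries and leaves out the error of the single young table. Set against I79 old instead, EGFR had a log2 ratio of -1.65, AREG of -2.71 and NRG1 of 1.96.

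**Figure D4:**
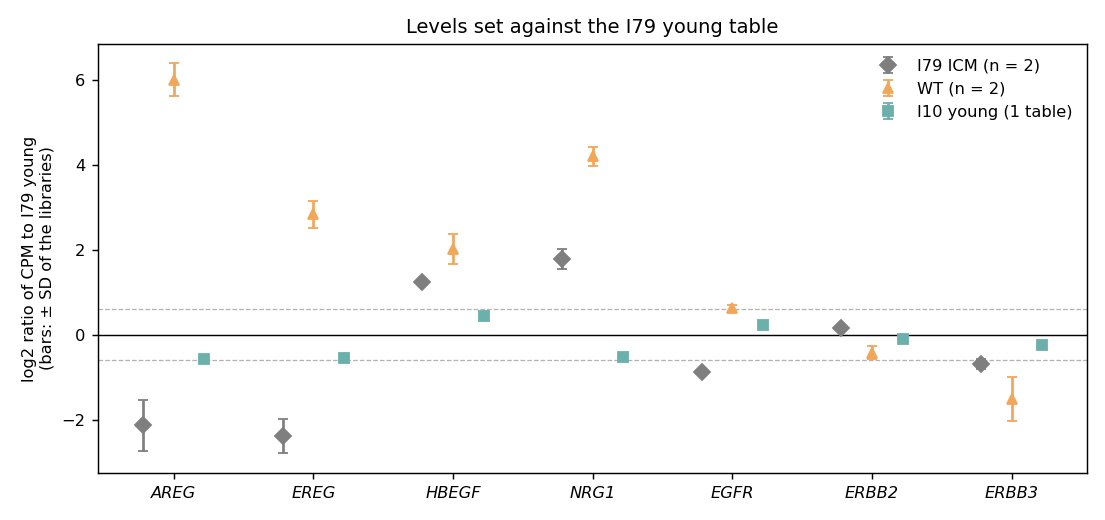
Log2 ratio of CPM to the I79 young table for the 7 members with enough reads, in the ICM libraries, the WT libraries and the I10 young table, with bars of 1 SD of the 2 libraries and dashed lines at 0.6. AREG lies at 5.99 in WT and -2.14 in ICM, while every I10 young point lies within the dashed lines.

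WT and I79 young differed most in the ligands. AREG was 63.7-fold, NRG1 18.2-fold and EREG 7.11-fold higher in WT, while HBEGF was 4.03-fold higher and EGFR 1.55-fold higher. ERBB2 and ERBB3 were lower in WT, with log2 ratios of -0.42 and -1.51. The isolate, any difference in passage, any transfection, the library preparation and the counting of WT and I79 young cannot be told apart. In WT, HMGB2 was 4.68-fold and the lamin gene LMNB1 3.83-fold lower than in I79 young. CDKN1A, the cell cycle inhibitor p21, was 3.17-fold higher. In old against young cells the log2 fold change was -1.64 for HMGB2, -2.86 for LMNB1 and 2.48 for CDKN1A. Whether these genes bear on the ligands was not tested. ICM ratios taken against WT in place of I79 young changed sign for HBEGF, NRG1 and ERBB3.

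Among the other family genes, EGF, EPGN, NRG2, NRG3, NRG4 and ERBB4, few were measurable and none was called by edgeR or DESeq2. In HMGB2 KD 0 of the 2 tested had an unadjusted p under 0.05, and in old cells 0 of the 1 tested. NRG3 had 0 counts everywhere, and ERBB4, the other receptor for neuregulins, had between 0 and 4 counts. EGF itself had between 20 and 40 counts in the WT and HMGB2 KD libraries, with a log2 fold change of 0.44 (SE 0.54, with adjusted p = 0.69, edgeR). EGF had 10 and 2 estimated counts in young and old I79 cells and 12 and 5 in I10, and its log2 fold change of -1.71 (SE 0.67) was not called (adjusted p = 0.12, edgeR). In the ICM libraries EGF had 89 and 61 reads, EPGN 11.7 and 16.2 and NRG4 121 and 92.7. None of the NRG4 reads lay in the coding region, and NRG4 overlaps FBXO22.

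The genes that act around these ligands and receptors were described by list. Ligand shedding (metalloproteases, rhomboid proteins, the protease NRDC and the metalloprotease inhibitor TIMP3) had 9 of 10 genes tested in HMGB2 KD against WT and none called by edgeR or DESeq2, with 1 gene (ADAM12, named after its values were seen) at an unadjusted p under 0.05 and a median log2 fold change of -0.16. In old against young cells 3 of 10 were called, all higher, against 9.36% of all genes tested (5.66% higher). The median was 0.74 against -0.01 for all genes, and 9 of the 10 had a positive fold change. ADAM17 had a log2 fold change of 0.06 (SE 0.11, with adjusted p = 0.71, edgeR). ADAM12 had -0.91 (SE 0.19) and was not called (adjusted p = 0.025, edgeR). TIMP3 had the highest fold change of the list, 1.498 on the log2 scale (SE 0.28), and was not called (adjusted p = 0.020, edgeR). ADAM10, a sheddase of betacellulin and EGF, rose from 200 to 468 CPM in I79 and, in I10, from 199 to 436 CPM, a log2 fold change of 1.18 (SE 0.12, with adjusted p = 0.0057, edgeR). RHBDF1, an inactive rhomboid that binds the sheddase ADAM17, rose by 0.80 and ADAM15 by 0.77 on the log2 scale, and both calls were lost with plain library totals and with counts scaled from TPM.

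Among receptor adaptors and signal carriers, 2 of 24 genes tested were called in HMGB2 KD, both higher, against 2.86% of all genes tested called higher. The fold change was positive for 15 of the 24. PIK3R3, a regulatory subunit of PI3 kinase, had the largest change in size, -1.60 on the log2 scale (SE 0.42). It was not called (adjusted p = 0.025, edgeR). EPS8, a substrate of EGFR, had 46.5 and 56.4 CPM in the WT libraries against 97.7 and 109.8 CPM in the knockdown, a log2 fold change of 1.01 (SE 0.14, with adjusted p = 0.00039, edgeR). NRAS rose by 0.67 on the log2 scale in HMGB2 KD, a call lost when either WT library or HMGB2 KD replicate 1 was left out. In old cells 4 of 25 were called, against 9.36% of all genes tested. GAB1, a docking protein of EGFR, and MAP2K1, the kinase that activates ERK, were higher by 1.01 and 0.78 on the log2 scale. PIK3R3 fell by 2.76 and NRAS by 0.72 on the log2 scale. With counts scaled from TPM the calls of GAB1, MAP2K1 and NRAS were lost, and that of MAP2K1 also with plain library totals.

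Among genes of negative feedback and receptor turnover, 4 of 24 were called in HMGB2 KD, against 5.20% of all genes tested. SOCS3, a suppressor of cytokine signalling, had 213 and 176 CPM in the WT libraries against 77.5 and 67.0 CPM in the knockdown, a log2 fold change of -1.43 (SE 0.14, with adjusted p = 5.64e-05, edgeR). SPRY1, an inhibitor of receptor signalling to ERK, and CBLB, a ubiquitin ligase of receptors, fell by 0.99 and 0.83 on the log2 scale. UBASH3B, which opposes receptor degradation, rose by 0.68. The call of SPRY1 was lost without HMGB2 KD replicate 2 and that of UBASH3B without WT replicate 1 or HMGB2 KD replicate 2. In old cells 5 of 24 were called higher and 2 lower, against 5.66% and 3.70% of all genes tested. ERRFI1, an inhibitor of the EGFR kinase, rose from 136 to 487 CPM in I79 and, in I10, from 143 to 766 CPM, a log2 fold change of 2.13 (SE 0.19, with adjusted p = 0.0049, edgeR). The ERK phosphatases DUSP5 and DUSP6 rose by 2.06 and 1.82 and SPRY2 by 1.48 on the log2 scale, while CBLB fell by 1.83 as well.

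Among ERK-responsive transcription factors and targets, 2 of 25 genes were called in HMGB2 KD, both higher, against 2.86% of all genes tested called higher. KLF6, a zinc finger transcription factor, had 67.4 and 77.8 CPM in the WT libraries against 101.3 and 122 CPM in the knockdown. It rose by 0.62, at the edge of both thresholds, and its call was lost under 6 of the 10 alternatives. In old cells 5 of 25 were called, all higher, against 5.66% of all genes tested called higher. The fold change was positive for 16 of the 25. EGR3 had a log2 fold change of -1.88 (SE 0.45) and FOS of -1.36 (SE 0.33). Neither was called (adjusted p = 0.036 and 0.039, edgeR). CCND1, the G1 cyclin D1, rose from 207 to 1116 CPM in I79 and, in I10, from 249.5 to 1662 CPM, by 2.58 on the log2 scale (SE 0.16, with adjusted p = 0.0037, edgeR). FOSL1, an AP-1 subunit, rose by 1.18, PLAUR, the urokinase receptor, by 1.15 and IER3 by 0.73. The call of FOSL1 was lost with no isolate covariate and that of IER3 with plain library totals and with counts scaled from TPM. The median of this list was 0.10 in HMGB2 KD and 0.29 in old cells.

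**Figure D5:**
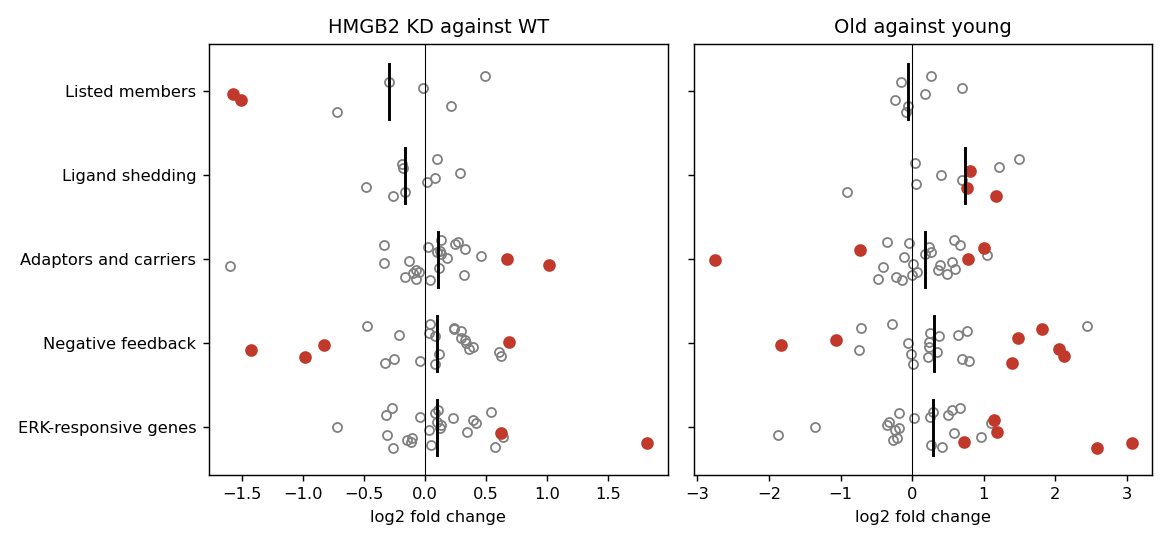
Log2 fold change of each gene tested in 5 gene lists, in HMGB2 KD against WT (left) and old against young (right), with filled red points for called genes, open points for the rest and black bars for list medians. In old against young the ligand shedding list has the highest median, 0.74, and the listed members lie close to 0 apart from EGFR.

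Over the 8 columns of old, young, WT and HMGB2 KD, each centred on the mean of its kind of table, the genes most like each member by Pearson r of log2 CPM were found among 12695 genes. They were ACTR10 (r = 0.99), PDK3 (r = 0.98) and CARMIL2 (r = 0.96) for AREG and PNPLA8, TXLNB and CHMP1B (all r = 0.99) for EREG. For NRG1 they were EYA4, ARHGAP6 and GK (all r = 0.99), and for EGFR SENP2 (r = 0.998), BTBD8 and FER1L4 (both r = 0.98). For ERBB2 they were ARHGEF18 (r = 0.993), PLEKHO2 and INTS1 (both r = 0.976), for HBEGF EIF4E3 (r = 0.925), GTF2E2 (r = 0.898) and TSPAN3 (r = 0.868), and for ERBB3 EFCAB6, ATG9A and POLE4 (all r = 0.95) on few counts. These genes were picked for the highest r among 12695 genes over only 8 columns, so a high r carries no support by itself. They are descriptions, and no p is attached.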

How the data were processed

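The authors prepared poly(A) RNA libraries with the TruSeq kit; per the labels the processing notes name STAR 2.6.0c, featureCounts, DESeq2 and GRCh37, without saying which file they made. Raw counts per gene were deposited for each WT and HMGB2 KD library, and summary rows (16.9% to 18.0% of totals) stayed out. For old and young cells they deposited estimated counts and TPM per transcript, 1 table per group. For ICM they deposited estimated counts of reads per gene region. For bulk RNA-seq in general the published methods give STAR (hg19) with featureCounts, and whether these region counts came from them is not stated. The methods also describe poly(A) RNA sequenced from part of the lysates used for ribosome profiling, ICM-treated cells among them. Which of these gave the ICM libraries was not settled here. A file of the authors' own fold changes and p-values was not used. Groups follow the sample titles.

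Estimated counts were summed per gene with GENCODE v44 lifted to GRCh37 (97.7% of transcript IDs matched) and rounded. Tests used edgeR 4.0.16 in R 4.3.3 (glmQLFit and glmQLFTest, TMM, filterByExpr with a minimum count of 10), with Benjamini-Hochberg adjustment over all genes; a call needed an adjusted p under 0.01 and a log2 fold change past 0.6. The SE is the fold change over the square root of F. Old against young carried the isolate as a covariate and left 1 residual degree of freedom. CPM were TMM-scaled for old, young, WT and HMGB2 KD and divided by plain totals for ICM. Ratios between kinds of table used log2 CPM with a prior count of 2; ratios within an isolate carry exact Clopper-Pearson 95% intervals, which cover counting error only. Alternatives were DESeq2 1.42.0, RUVs, other scalings, no filter, the replicate block and leaving out libraries. Scripts were tested on simulated data.

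Members and lists were chosen with earlier results of these data known. Named are all family genes, the label checks, up to 5 called genes per list and comparison by size of change, the 3 genes most like each member and the 3 leading transcripts. ADAM12, ADAM17, TIMP3, FOS and EGR3, and PIK3R3 in HMGB2 KD, were not called and were named after their values were seen. The values of 1 called gene of the lists are not reported here.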

Additional observations from a re-analysis of the deposited data

Results flagged for a closer look

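For AREG, NRG1 and ERBB3 the log2 ratio of old over young cells had opposite signs in the isolates, each from 1 table per group, and the difference between isolates was not tested. AREG had 0.748 in I79 and -1.13 in I10, on between 35 and 198 estimated counts, and only here did both 95% counting intervals leave out 0. NRG1 had -0.014 in I79 and 0.376 in I10, and the interval of the first includes 0 (-0.21 to 0.19). ERBB3 had -1.82 in I79 and 0.959 in I10, on between 4 and 22 estimated counts, and the interval of the second includes 0 (-0.12 to 2.11). No group had the 4 or more samples that a check for a single distant sample needs.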

How the results depend on the processing

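In HMGB2 KD against WT, 797 genes were called (438 higher, 359 lower), and leaving out 1 library gave between 312, without replicate 2 of the knockdown, and 999, without its replicate 1. Each lone library left by this was assumed to vary like the other group. Titles give both groups the replicate numbers 1 and 2, but deviations of same-numbered libraries correlated at r = 0.12 over 2 pairs, so the numbers were not taken to pair them; with the replicate block 1243 genes were called, and AREG was called at a log2 fold change of -0.78. In old against young cells 1416 genes were called (856 higher, 560 lower). At an adjusted p under 0.05 there were 3845, with no filter on low counts 4247 and with DESeq2's Wald test 2160. Plain library totals gave 3148, of which 1026 were higher and 2122 lower, and in HMGB2 KD 385 higher and 484 lower. NRG1 was called lower in HMGB2 KD under all 10 alternatives and EREG under 9. When a library was left out, the log2 fold changes in HMGB2 KD ranged from -0.069 to 0.027 for EGFR, from -1.51 to 0.31 for ERBB3, from -0.021 to 0.79 for EGF and from -0.096 to 0.015 for LMNB1. In old against young, AREG was 0.26 and ERBB3 0.043 with no isolate covariate, and NRG1 was -0.032 with plain library totals. Against WT in place of I79 young, ICM ratios were -0.77 for HBEGF, -2.41 for NRG1 and 0.83 for ERBB3. Apart from the constructions named, the cause was not tested. Depth limits TGFA, BTC and ERBB3.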
